A study of Homo sapiens with 12 samples.

Results

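The genes described here encode ABC transporters that the field discusses in relation to drug efflux: ABCB1, ABCB6, ABCC1, ABCC3, ABCC4, ABCC5, ABCC9, ABCC10, ABCA2 and ABCA3. They were taken by name, and every probe that the platform annotation assigns to 1 of these 10 symbols was followed. Of the 10 genes, 9 had a probe, among 20046 genes with a probe in all, while ABCC1, to which the annotation table used here pairs no probe, was not analysed here. These 9 genes had 15 probes, of which 14 were tested. The remaining ABCA2 probe was above background on none of the 12 arrays and was not tested.

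Transcript levels were measured with Illumina HT-12 v4 bead arrays in SK-N-SH, a human neuroblastoma cell line, in 4 groups of 3 arrays. DoxR-v cells had been selected in stepwise doses of doxorubicin, a DNA-damaging anthracycline, with vorinostat (SAHA), an inhibitor of histone deacetylases, given intermittently at its IC25 at each logarithmic increase in dose. DoxR cells had been selected in doxorubicin alone. For both resistant lines, selection ran until they had lived through 5 passages at a dose near 2 log over the IC50. WT-v cells were parental cells given vorinostat alone on the same schedule, and WT cells were the parental line. Each group is 1 line selected or treated once, so that a difference between groups cannot be told apart from a difference between lines. The study speaks of triplicate specimens, and neither it nor the labels say that these were separate cultures. The p-values below therefore measure the spread between these arrays, which may be technical.

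Between 14969 and 17220 of 47323 probes were detected per array. All 14 measured neuroblast markers were detected in DoxR-v, WT-v and WT cells, and 13 of them in DoxR cells, where the catecholamine enzyme gene TH was not. Their summed linear level was 66938 to 78003 in DoxR-v, 55855 to 56391 in DoxR, 74453 to 78480 in WT-v and 62451 to 72037 in WT cells. None of 6 endothelial markers was detected in any group. Of 5 glial markers ERBB3 alone was detected, in DoxR-v and DoxR cells, with a summed linear level of 46.8 to 64.9 in DoxR-v, 52.8 to 64.5 in DoxR, 21.2 to 26.0 in WT-v and 22.4 to 23.7 in WT cells. Of 6 epithelial markers EPCAM and KRT19 were detected in DoxR-v and KRT19 in WT cells (summed level 145 to 240 in DoxR-v, 71.4 to 84.3 in DoxR, 65.2 to 92.1 in WT-v and 110 to 142 in WT). Of 7 blood cell markers CD68 was detected in every group and CD14 in WT-v and WT (210 to 246 in DoxR-v, 246 to 281 in DoxR, 169 to 257 in WT-v and 313 to 550 in WT). Of 13 mesenchymal markers 7 were detected in DoxR-v, 8 in DoxR, 7 in WT-v and 7 in WT cells. Their summed linear level was 6716 to 8175 in DoxR-v, 13296 to 14223 in DoxR, 7993 to 9047 in WT-v and 5295 to 5757 in WT cells. A sum weighs the brightest genes most, and single mesenchymal markers went both ways. By the limits given below, 4 of 10 tested were higher and 3 lower in DoxR vs WT (median log2 -0.07), against 17.1% and 16% of all genes. In DoxR-v vs WT 2 were higher and 4 lower (median log2 -0.45), against 12.6% and 11.8%. In WT-v vs WT 4 were higher and 3 lower (median log2 0.49), against 14% and 12.3%. The part of these markers in the ABC transporter values was not tested. An array reads RNA from a whole population, so a change in the share of a cell type cannot be told apart from a change in RNA per cell.

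ABC transporters are membrane proteins that use ATP to move a substrate across a membrane. ABCB1 encodes P-glycoprotein, the pump best known for exporting doxorubicin, etoposide and vinca alkaloids. Members of the ABCC family (multidrug resistance proteins, MRPs) export organic anions, often as conjugates with glutathione, glucuronate or sulfate, while ABCC9 is a regulatory subunit of ATP-sensitive potassium channels and not a known pump. The ABCA members move lipids within cells.

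Promoter sequence was examined because ABCB1 is known to be controlled through CCAAT and GC-rich elements near its downstream start. All members were looked up, whether or not they differed between groups. RefSeq (GRCh38.p14) windows of 250 bases before a start were found for 8 of the 10 genes, 11 windows in all. Those of ABCB1 (chr7:87600885-87601134, minus strand), ABCB6 (chr2:219218959-219219208, minus strand) and ABCC4 (chr13:95301452-95301701, minus strand) are shown as examples of genes that were higher in DoxR cells, and that of ABCC9 (chr12:21941427-21941676, minus strand) of those that were lower. ABCA2, also higher, and ABCC5, also lower with its full-length probe, are described without their windows. No window was found for ABCC3, which was also lower in DoxR cells, or for ABCC1. The printed windows run 5′ to 3′ with the CCAAT box, the GC box (GGGCGG) and the E-box (CACGTG) on either strand in capitals.
ABCB1 downstream start: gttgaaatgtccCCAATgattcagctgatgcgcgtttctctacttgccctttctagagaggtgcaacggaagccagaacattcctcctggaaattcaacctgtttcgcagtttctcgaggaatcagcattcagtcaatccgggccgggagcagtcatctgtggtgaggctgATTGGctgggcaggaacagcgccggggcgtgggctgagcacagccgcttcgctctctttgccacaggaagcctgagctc
ABCB6: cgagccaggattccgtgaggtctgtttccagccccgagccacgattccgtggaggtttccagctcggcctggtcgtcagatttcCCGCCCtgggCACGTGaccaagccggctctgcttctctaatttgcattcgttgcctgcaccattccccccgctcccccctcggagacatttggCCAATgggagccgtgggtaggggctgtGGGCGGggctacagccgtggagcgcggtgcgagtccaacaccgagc
ABCC4: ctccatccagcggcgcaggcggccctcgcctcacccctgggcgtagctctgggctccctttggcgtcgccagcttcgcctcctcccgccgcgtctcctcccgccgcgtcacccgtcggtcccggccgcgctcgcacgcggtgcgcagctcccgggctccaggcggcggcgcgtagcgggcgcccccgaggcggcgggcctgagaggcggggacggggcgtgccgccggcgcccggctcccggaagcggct
ABCC9: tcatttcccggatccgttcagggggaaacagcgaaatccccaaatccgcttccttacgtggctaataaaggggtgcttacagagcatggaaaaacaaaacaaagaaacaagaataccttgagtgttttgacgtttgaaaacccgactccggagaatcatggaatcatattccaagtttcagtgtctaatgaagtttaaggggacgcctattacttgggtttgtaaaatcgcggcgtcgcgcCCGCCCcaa
The ABCB1 window held a CCAAT box, the letters bound by the factor NF-Y, at 238 to 234 bases before the start and another, on the opposite strand, at 79 to 75 bases. It held no exact match to GGGCGG, a GC box bound by SP1, and none to the E-box, bound by MYC proteins. GC-rich letters in this window that differ from GGGCGG were not counted, so a lack of SP1 sites cannot be read from this. Of 35116 windows of the same length, 32.0% held a CCAAT box, 42.6% a GC box and 6.345% an E-box. The ABCB6 window held all of them, with the CCAAT box at 73 to 69, GC boxes at 166 to 161 and 46 to 41 and the E-box at 156 to 151 bases before the start. The ABCC4 window held none, with a GC content of 80.4%, and that of ABCC9 held a GC box at 9 to 4 bases. Of the 4 genes that rose in DoxR cells, ABCB1 and ABCB6 shared the CCAAT box, ABCB6 and ABCA2 the GC box, and no capitalized element was shared by all 4. Among the windows not printed, a GC box was in those of ABCC5 and ABCA3 and in the downstream ones of ABCC10 and ABCA2, the last with 6.

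The other letters searched on both strands were the TATA box (TATAAA, in 10.72% of windows) and the hypoxia response core as ACGTG (18.51%) or as GCGTG (32.2%). The last stood at 53 to 49 bases before the downstream ABCB1 start and at 117 to 113 and 34 to 30 bases before that of ABCC4. The other form of the core overlapped the E-box of ABCB6 and stood at 195 to 191 bases in the ABCC9 window, and the TATA box was in none of the windows printed. The window at the upstream start of ABCB1 held none of the letters searched. These are matches of letters only.

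To understand how the transporter genes differed after selection and vorinostat, each group was compared on the log2 scale of background-corrected, quantile-normalized signal. Calls used the study's own limits, a limma p-value under 0.1 after adjustment over 21609 probes together with more than a 1.5-fold difference. In DoxR vs WT, 10 of the 14 member probes were called, against 29.7% of all probes, with 6 higher (15.2% of all probes) and 4 lower (14.5%). In DoxR-v vs WT 7 were called, against 22.3% of all probes, with 4 higher (11.4%) and 3 lower (10.9%). Vorinostat alone (WT-v vs WT) went with 5 calls, against 24.8%, of which 1 was higher (13.2%) and 4 were lower (11.6%). The DoxR-v vs DoxR comparison gave 8 calls, against 24.9%, with 2 higher (12.6%) and 6 lower (12.3%). Of the 15 probes, 11 were detected on all 12 arrays. The median log2 difference over the 14 probes was 0.09 in DoxR vs WT, -0.11 in DoxR-v vs WT, -0.27 in WT-v vs WT and -0.52 in DoxR-v vs DoxR, while the medians over all probes lay between -0.00 and 0.02. The 4 comparisons share arrays and are not independent of each other.

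**Figure D1:**
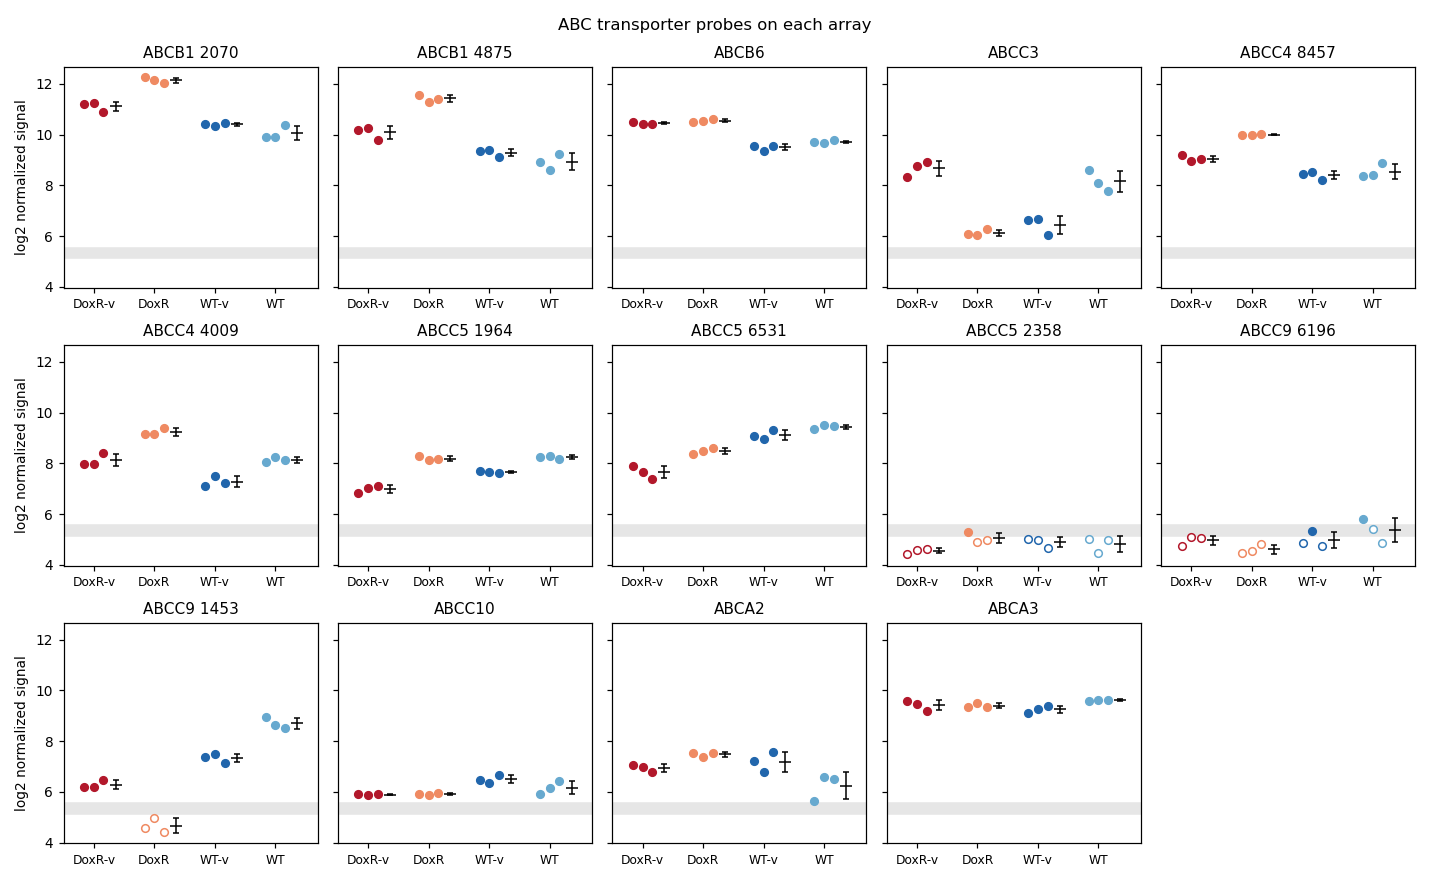
Log2 normalized signal (vertical axis) of each tested ABC transporter probe on each array, by group; a panel title carries the last 4 digits of the probe ID where a gene has several probes. Filled points were detected, open points were not, bars are mean ± SD of 3 arrays, and the grey band spans the lowest detected levels of the 12 arrays. ABCB1 was highest in DoxR, ABCC9 was not detected there with its brighter probe, and ABCC3 was high in DoxR-v and WT.

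ABCB1 was highest in DoxR cells and second highest in DoxR-v cells, with both of its probes. Probe ILMN_1812070 read 11.20, 11.24 and 10.90 in DoxR-v, 12.25, 12.14 and 12.05 in DoxR, 10.41, 10.34 and 10.47 in WT-v, and 9.90, 9.89 and 10.38 in WT cells. Probe ILMN_2094875 read 10.20, 10.28 and 9.78 in DoxR-v, 11.56, 11.30 and 11.42 in DoxR, 9.36, 9.37 and 9.12 in WT-v, and 8.94, 8.59 and 9.25 in WT cells. With either probe the DoxR arrays lay above all others and the DoxR-v arrays above both parental groups, while WT-v and WT overlapped. The rise in DoxR over WT was 4.26-fold with ILMN_1812070 (log2 2.09, 95% interval 1.76 to 2.42, adjusted p = 2.66e-07) and 5.65-fold with ILMN_2094875 (log2 2.50, adjusted p = 2.60e-07). DoxR-v cells exceeded WT 2.08-fold and 2.23-fold (adjusted p = 0.000207 and 0.000392), and they lay below DoxR by 2.05-fold and 2.53-fold (adjusted p = 0.000154 and 7.85e-05). The excess of DoxR-v over WT-v was 1.63-fold and 1.74-fold (adjusted p = 0.00348 and 0.00475). In WT-v cells the log2 differences from WT were 0.35 (95% interval 0.02 to 0.68) and 0.36 (-0.03 to 0.75), neither of which was called, although both were called after median scaling (0.67 and 0.76).

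ABCB6, which encodes a porphyrin transporter of mitochondria, lysosomes and the cell surface, was higher in both resistant lines. Its probe read 10.51, 10.43 and 10.41 in DoxR-v, 10.51, 10.52 and 10.63 in DoxR, 9.56, 9.37 and 9.56 in WT-v, and 9.70, 9.67 and 9.77 in WT cells. The resistant arrays lay above all parental arrays, and replicates differed little. Against WT, ABCB6 was 0.73 higher on the log2 scale in DoxR-v (SE 0.11, 1.66-fold, adjusted p = 0.000324) and 0.84 higher in DoxR (SE 0.11, 1.79-fold, adjusted p = 6.37e-05). DoxR-v and DoxR differed by -0.10 (95% interval -0.34 to 0.14) and WT-v and WT by -0.22 (-0.46 to 0.03), and neither was called. Both intervals lay within 1.5-fold in either direction.

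ABCC3 (MRP3), an exporter of bile salts and glucuronides, was higher in DoxR-v than in DoxR cells but lower in WT-v than in WT cells. It read 8.34, 8.76 and 8.90 in DoxR-v, 6.07, 6.05 and 6.26 in DoxR, 6.63, 6.67 and 6.05 in WT-v, and 8.61, 8.08 and 7.79 in WT cells. The DoxR-v and WT arrays formed the high levels and overlapped, and the DoxR and WT-v arrays formed the low ones and overlapped. ABCC3 was lower in DoxR than in WT by 4.09-fold (log2 -2.03, SE 0.23, adjusted p = 1.26e-05) and lower in WT-v than in WT by 3.27-fold (log2 -1.71, adjusted p = 0.000112). It was 5.81-fold higher in DoxR-v than in DoxR (log2 2.54, adjusted p = 1.90e-06). DoxR-v exceeded WT by 0.51 (95% interval 0.02 to 0.99, adjusted p = 0.109), which was not called. Without DoxR-v replicate 1 (0.67) or WT replicate 1 (0.73), and after median scaling (0.98), it was. On the authors' normalized values, whose low end is compressed, the differences shrank to -0.88 in DoxR vs WT, -0.78 in WT-v vs WT and 1.21 in DoxR-v vs DoxR, and the calls were kept.

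ABCC4 (MRP4), an exporter of cyclic nucleotides, prostaglandins and nucleotide analogues, was highest in DoxR cells. Probe ILMN_1788457 read 9.18, 8.94 and 9.03 in DoxR-v, 9.99, 9.97 and 10.01 in DoxR, 8.45, 8.52 and 8.22 in WT-v, and 8.36, 8.40 and 8.87 in WT cells. Probe ILMN_2194009 read 7.99, 7.98 and 8.40 in DoxR-v, 9.14, 9.14 and 9.40 in DoxR, 7.10, 7.51 and 7.21 in WT-v, and 8.03, 8.25 and 8.12 in WT cells. Both probes placed the DoxR arrays above all others, and they differed in the order of DoxR-v and WT, since the DoxR-v arrays lay above WT with the first and overlapped WT with the second. ABCC4 rose 2.73-fold in DoxR over WT with the first probe (log2 1.45, SE 0.15, adjusted p = 6.89e-06) and 2.13-fold with the second (log2 1.09, SE 0.16, adjusted p = 0.000104). In DoxR-v it was lower than in DoxR by 1.92-fold and 2.16-fold (adjusted p = 0.000301 and 0.000108). Against WT, DoxR-v was at 0.51 (95% interval 0.19 to 0.83, adjusted p = 0.0207) and -0.01 (-0.35 to 0.32), neither past the fold threshold. The first of these was called without WT replicate 3 (0.67) and after median scaling (0.97). WT-v fell below WT with the second probe alone (1.82-fold, adjusted p = 0.00105, against a log2 difference of -0.15 with the first), and that call ended after median scaling and on the authors' values (log2 -0.45).

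ABCC5 (MRP5), an exporter of cyclic nucleotides and nucleotide analogues, was lowest in DoxR-v cells with both of its detected probes. Probe ILMN_1706531, assigned to the full-length transcript, read 7.89, 7.66 and 7.40 in DoxR-v, 8.35, 8.48 and 8.59 in DoxR, 9.06, 8.95 and 9.33 in WT-v, and 9.34, 9.50 and 9.46 in WT cells. Probe ILMN_1651964, assigned to a shorter transcript, read 6.82, 7.03 and 7.10 in DoxR-v, 8.28, 8.12 and 8.15 in DoxR, 7.70, 7.67 and 7.60 in WT-v, and 8.26, 8.30 and 8.18 in WT cells. The groups did not overlap with the first probe, and with the second only DoxR and WT did. In DoxR-v, ABCC5 fell below WT by 3.45-fold with the full-length probe (log2 -1.79, SE 0.15, adjusted p = 2.05e-06) and by 2.40-fold with the shorter one (log2 -1.26, SE 0.12, adjusted p = 5.23e-06). It was also below DoxR by 1.77-fold (log2 -0.82, adjusted p = 0.000829) and 2.30-fold (log2 -1.20, adjusted p = 4.72e-06). DoxR differed from WT with the full-length probe (1.95-fold lower, adjusted p = 0.00021) and by -0.06 (95% interval -0.32 to 0.19) with the shorter one. Averaged over its probes, ABCC5 was not called in DoxR vs WT (log2 -0.26). The call of the full-length probe in DoxR-v vs DoxR ended on the authors' values (log2 -0.49), and that of the shorter probe in WT-v vs WT (1.51-fold lower) ended without WT-v replicate 3 or WT replicate 2 (log2 -0.56 each) and after 4 of the other alternatives. The third probe, ILMN_2302358, is assigned to the same shorter transcript as ILMN_1651964. It read 4.44 to 5.29 and was detected on 1 DoxR array, and it was called in no comparison. Probes of 1 transcript thus differed in detection, so a difference between probes cannot be read as a difference between transcripts.

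ABCC9 encodes SUR2, the sulfonylurea receptor that surrounds the pore of ATP-sensitive potassium channels. The probe assigned to the SUR2B transcript, ILMN_1751453, read 6.18, 6.20 and 6.48 in DoxR-v, 4.59, 4.99 and 4.41 in DoxR, 7.36, 7.48 and 7.15 in WT-v, and 8.95, 8.64 and 8.51 in WT cells. No groups overlapped, and the DoxR arrays were all below detection. ABCC9 was at least 10.7-fold lower in DoxR than in WT (log2 -4.04, SE 0.17, adjusted p = 1.71e-09), where the bound takes, on each DoxR array, the lowest level among detected probes. Against WT it fell by 2.42 on the log2 scale in DoxR-v (5.33-fold, adjusted p = 4.65e-07) and by 1.37 in WT-v (2.59-fold, adjusted p = 8.18e-05), and DoxR-v exceeded DoxR at least 2.01-fold (log2 1.62, adjusted p = 9.82e-06). This last call ended on the authors' values (log2 0.33), on which DoxR vs WT was -1.52. The probe of the SUR2A transcript, ILMN_1746196, lay near background (4.45 to 5.80) and was detected on 1 WT-v and 1 WT array. It was called lower in DoxR vs WT (log2 -0.75, adjusted p = 0.0168, at least 1.05-fold), a call that ended without WT replicate 1 (-0.53) and with a larger offset.

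The pore partner of SUR2 in vascular channels, Kir6.1, is encoded by KCNJ8, the next tested gene to ABCC9 on chromosome 12. KCNJ8 read 10.72, 10.72 and 10.50 in DoxR-v, 9.69, 9.60 and 9.57 in DoxR, 10.59, 10.69 and 10.46 in WT-v, and 11.27, 11.22 and 11.53 in WT cells. As with ABCC9, the DoxR arrays were lowest and the WT arrays highest, while DoxR-v and WT-v overlapped. KCNJ8 fell by 1.72 on the log2 scale in DoxR (adjusted p = 3.36e-07), by 0.69 in DoxR-v (adjusted p = 0.0013) and by 0.76 in WT-v against WT, and was 1.03 higher in DoxR-v than in DoxR (adjusted p = 4.00e-05). The other pore gene, KCNJ11, was detected on 0 arrays.

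ABCC10 (MRP7), which transports taxanes and vinca alkaloids, was called against neither DoxR nor WT. It read 5.91, 5.88 and 5.91 in DoxR-v, 5.93, 5.87 and 5.95 in DoxR, 6.47, 6.37 and 6.68 in WT-v, and 5.92, 6.15 and 6.44 in WT cells. The WT-v arrays lay above both resistant groups. Relative to WT-v the log2 difference of ABCC10 was -0.61 in DoxR-v (1.52-fold lower, adjusted p = 0.00544) and -0.59 in DoxR (1.5-fold lower, adjusted p = 0.00501), just past the fold threshold. Without WT-v replicate 3 both calls ended (log2 -0.52 and -0.50), and without DoxR replicate 2 the second did (log2 -0.56). Both also ended without background correction, with a larger offset and on the authors' values. Against WT the log2 differences were -0.27 in DoxR-v, -0.25 in DoxR and 0.34 in WT-v cells, and the last was called under median scaling (0.72).

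ABCA2, a lipid transporter of endosomes and lysosomes that is abundant in brain, was lowest in WT cells. Its detected probe read 7.07, 6.98 and 6.78 in DoxR-v, 7.53, 7.38 and 7.52 in DoxR, 7.21, 6.79 and 7.58 in WT-v, and 5.63, 6.58 and 6.52 in WT cells. All WT arrays lay below all others, and WT replicate 1 lay well below the other WT arrays. On the log2 scale ABCA2 exceeded WT by 0.70 in DoxR-v (1.62-fold, adjusted p = 0.0418), by 1.23 in DoxR (2.35-fold, adjusted p = 0.0012) and by 0.95 in WT-v cells (1.93-fold, adjusted p = 0.00876). The call in DoxR-v ended without WT replicate 1 (log2 0.39), DoxR-v replicate 1 (0.64) or DoxR-v replicate 2 (0.68), and on the authors' values none of the 3 was called (log2 0.45 in DoxR, 0.22 in DoxR-v and 0.33 in WT-v). The other ABCA2 probe read 4.30 to 4.96 and was detected on 0 arrays.

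ABCA3, which loads phospholipids into lamellar bodies in the lung, was called in no comparison. It read 9.59, 9.48 and 9.19 in DoxR-v, 9.35, 9.50 and 9.36 in DoxR, 9.11, 9.27 and 9.37 in WT-v, and 9.59, 9.64 and 9.64 in WT cells. Its largest log2 difference was that of WT-v from WT (-0.37, 95% interval -0.65 to -0.09, adjusted p = 0.0436), under the fold threshold.

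**Figure D2:**
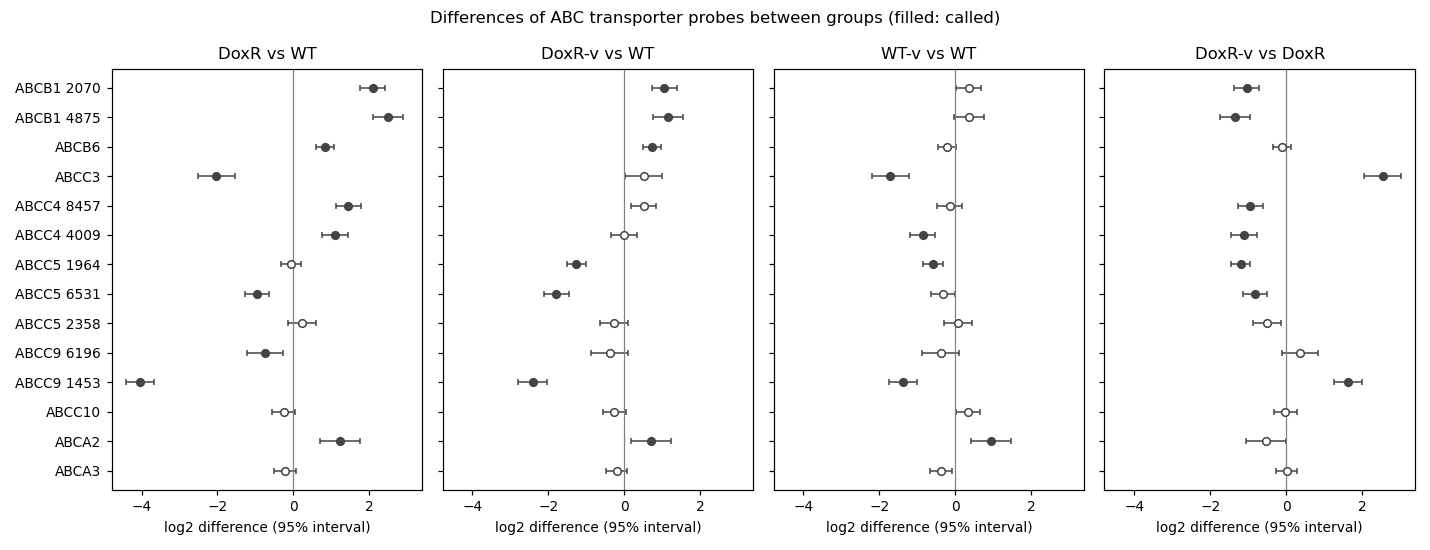
Log2 difference (horizontal axis) with its 95% interval for each tested probe in 4 comparisons, from the limma fit over 12 arrays; filled points passed both thresholds. ABCB1 and ABCC4 lay to the right of 0 in DoxR vs WT and to the left in DoxR-v vs DoxR, and ABCC3 and ABCC9 the other way round.

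To set the resistant lines against parental cells that had also received vorinostat, DoxR-v and DoxR were compared with WT-v. In DoxR-v vs WT-v 10 of 14 member probes were called, against 22.3% of all probes, with 6 higher (10.9%) and 4 lower (11.3%). ABCB1 and ABCC4 (both probes each), ABCB6 and ABCC3 were higher, and ABCC5 (2 probes), ABCC9 and ABCC10 were lower. ABCC3 was 4.64-fold higher (log2 2.21, adjusted p = 1.16e-05), and ABCB6 1.93-fold (log2 0.95, adjusted p = 4.05e-05). ABCC4 was 1.57-fold higher with ILMN_1788457 and 1.80-fold with ILMN_2194009 (adjusted p = 0.00508 and 0.00121), and the call with the first ended without WT-v replicate 3 (log2 0.57). On the authors' values the calls of both ABCC4 probes ended (log2 0.47 and 0.45). So did those of the shorter ABCC5 probe (-0.31), ABCC9 (-0.39) and ABCC10 (-0.17), while ABCB1, ABCB6, ABCC3 and the full-length ABCC5 probe kept theirs. The ABCC9 call also ended when probes were averaged (-0.52). In DoxR vs WT-v 8 were called, against 27.3% of all probes, with 5 higher (13.4%) and 3 lower (13.9%). ABCB1 was 3.34-fold and 4.41-fold higher, ABCC4 3.02-fold and 3.87-fold, and ABCB6 2.08-fold. ABCC5 went in opposite directions with its probes, at -0.64 with the full-length probe (adjusted p = 0.00444) and 0.53 with the shorter one, under the fold threshold. The call of the full-length probe ended without DoxR replicate 1 (-0.58) or WT-v replicate 3 (-0.53). It also ended without background correction (-0.55) and on the authors' values (-0.46).

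Whether vorinostat went with the same change in resistant and parental cells was tested with the interaction, the DoxR-v minus DoxR difference less the WT-v minus WT difference. Of the 14 member probes 8 were called, against 38.3% of all probes, with 3 higher (18.4%) and 5 lower (19.9%). ABCC3 had an interaction of 4.25 (SE 0.32, adjusted p = 5.46e-07), from 2.54 in resistant and -1.71 in parental cells. ABCC9 was called at 2.99 with the SUR2B probe (SE 0.25, adjusted p = 1.23e-06), from measured differences of 1.62 in resistant and -1.37 in parental cells. Its DoxR arrays were below detection, so that 1.62 and 2.99 are not exact sizes, and on the authors' values the interaction was 1.13. Both genes were thus higher in DoxR-v than in DoxR and lower in WT-v than in WT cells. DoxR-v is a separately selected line and not DoxR cells given vorinostat. ABCB1 went the other way, at -1.39 and -1.70 with its probes (adjusted p = 0.000271 and 0.000217), from -1.04 and -1.34 in resistant and 0.35 and 0.36 in parental cells. ABCA2 (-1.48, adjusted p = 0.00416), ABCC4 with ILMN_1788457 (-0.79, adjusted p = 0.0102) and ABCC5 with the shorter probe (-0.61, adjusted p = 0.0115) were called in the same direction as ABCB1. With the other probes of ABCC4 (-0.25) and ABCC5 (-0.50 with ILMN_1706531 and -0.57 with ILMN_2302358) the interaction was not called. For ABCC5 it became called with ILMN_1706531 under median scaling (-0.72) or without DoxR-v replicate 1 (-0.62), and with ILMN_2302358 without any 1 of 6 arrays (-0.68 to -0.60). For the shorter ABCC5 probe the call ended without DoxR-v replicate 1 (-0.53), DoxR replicate 1 (-0.56) or WT replicate 3 (-0.58), and for ABCC4 it ended when probes were averaged (-0.52). The SUR2A probe of ABCC9, near background, was called at 0.75 (adjusted p = 0.0827), and its call ended without any 1 of 8 arrays. ABCB6 had an interaction of 0.11 (95% interval -0.23 to 0.46), ABCC10 of -0.36 and ABCA3 of 0.39, none of them called, although that of ABCC10 was under median scaling (-0.62).

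**Figure D3:**
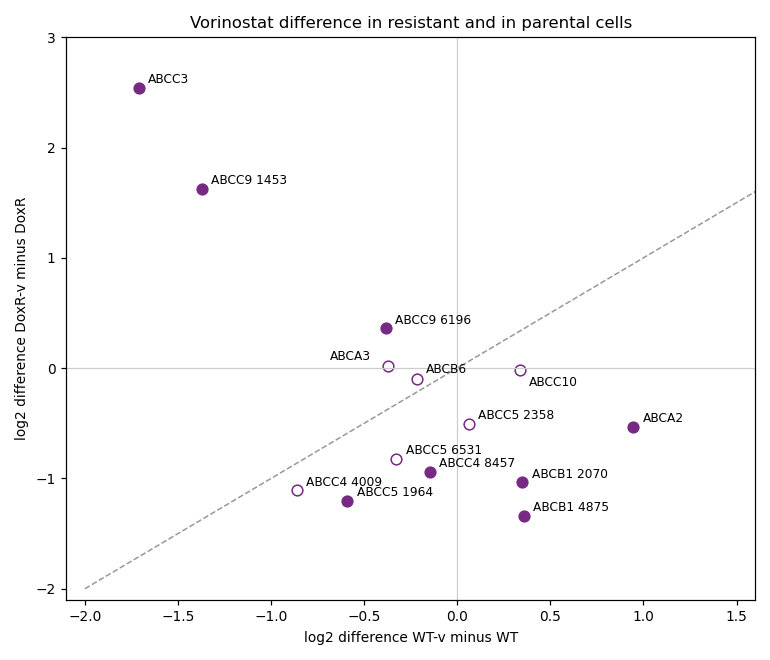
Log2 difference between DoxR-v and DoxR (vertical axis) against that between WT-v and WT (horizontal axis) for each tested ABC transporter probe; the dashed line marks equal differences and filled points had a called interaction. ABCC3 and the SUR2B probe of ABCC9 stand at the upper left, and ABCB1 and ABCA2 at the lower right.

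The position of each member on its chromosome was used to ask whether neighbouring genes moved with it. For each of the 9 members the 5 nearest tested genes on each side were taken, in the order of the RefSeq annotation, a description chosen after other results of these data had been seen. Around ABCB1, all 10 neighbours were higher in DoxR than in WT (median log2 2.01), against 17.1% of all genes. They were ELAPOR2 (log2 2.56), DMTF1 (0.91), TMEM243 (1.72), TP53TG1 (0.95), CROT (2.37), RUNDC3B (1.92), SLC25A40 (2.09), DBF4 (2.28), ADAM22 (2.79) and SRI (1.56), and ABCB1 itself lay within their range. In DoxR-v vs WT, 4 of them were higher (median log2 0.37), against 12.6% of all genes, a count that was 7 under median scaling and 2 on the authors' values. In WT-v vs WT 1 was higher (median log2 0.33), against 14% of all genes, with 4 under median scaling and 0 on the authors' values. In DoxR-v vs DoxR 8 were lower and 1, ELAPOR2, was higher (log2 1.30), with a median of -1.40, against 13.9% and 14.3% of all genes. On the authors' values 6 of them were lower. DoxR arrays enter both DoxR vs WT and DoxR-v vs DoxR, so that these counts are not independent.

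ABCC3 also had neighbours that moved with it. Of its 10 neighbours 7 were lower in DoxR than in WT (median log2 -0.73), against 16% of all genes, among them XYLT2 (log2 -1.63) and SPATA20 (-1.26). Against DoxR, 7 were higher in DoxR-v (median log2 0.93), where 14.3% of all genes were. In WT-v vs WT, where ABCC3 itself fell, 1 neighbour was lower and 1 higher (median log2 -0.07), against 12.3% and 14% of all genes. Both under median scaling and on the authors' values, 3 of the neighbours were lower in DoxR vs WT. In DoxR-v vs DoxR 3 were higher on the authors' values and 8 under median scaling. Around ABCC4, which rose in DoxR, 0 of 10 neighbours were called there (median log2 0.03, limma, with 4 past an unadjusted p of 0.05). Of all genes, 17.1% were higher in DoxR vs WT and 16% lower. The neighbours of ABCC9 called in DoxR were KCNJ8 and CMAS (log2 -0.69), both lower. Around ABCC5, which fell in DoxR-v cells, 5 of 10 neighbours were lower in DoxR-v than in WT (median log2 -0.42), against 11.8% of all genes. Around ABCB6, ABCC5, ABCC10, ABCA2 and ABCA3 between 1 and 4 of 10 neighbours were called in DoxR vs WT, with 17.1% of all genes higher and 16% lower. Whether gene dosage had a part in any of these values was not tested.

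**Figure D4:**
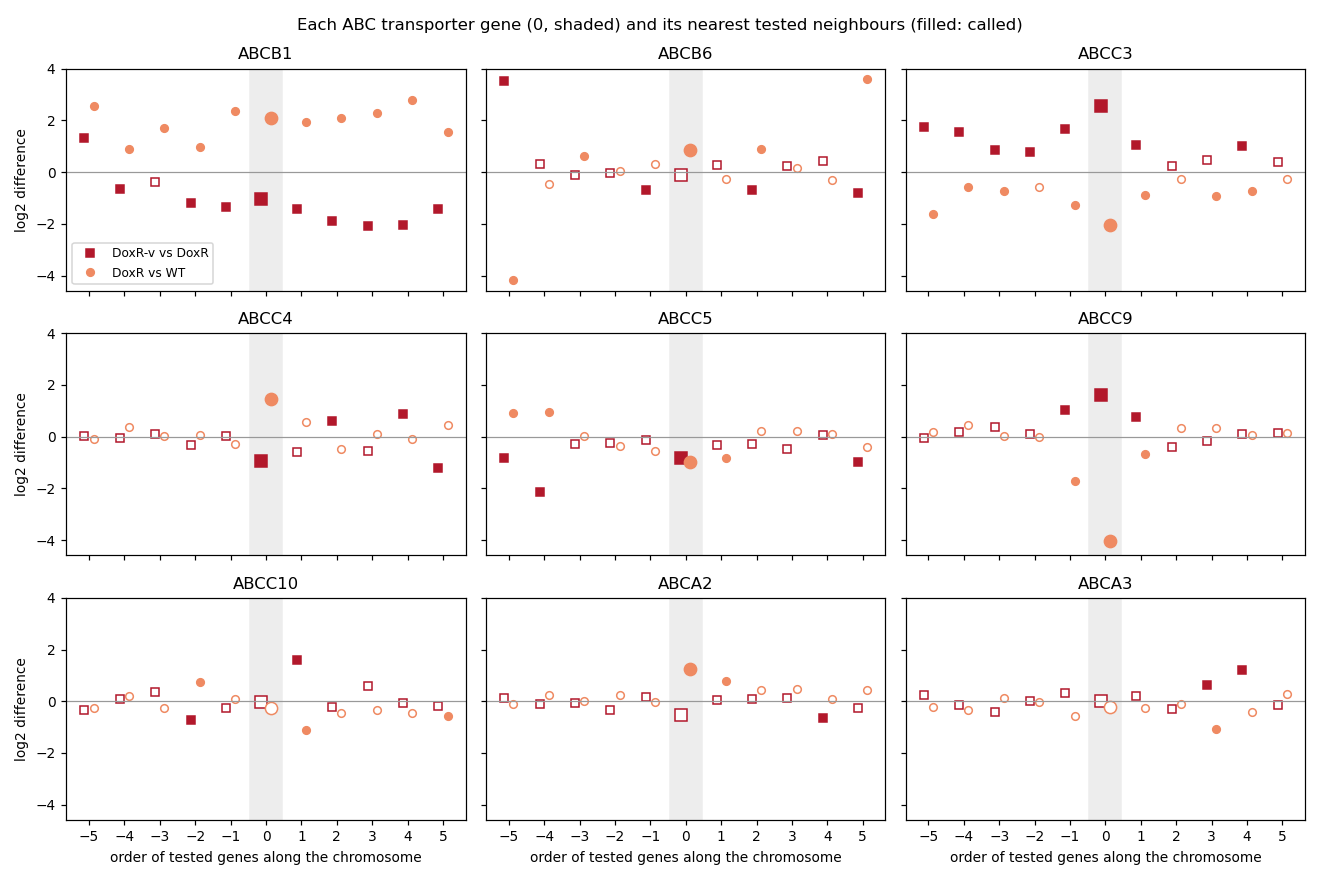
Log2 difference (vertical axis) of each ABC transporter gene (position 0, shaded, larger points) and of the 5 nearest tested genes on each side (horizontal axis, order along the chromosome) in DoxR-v vs DoxR (squares) and DoxR vs WT (circles); filled points were called. In DoxR vs WT all 10 neighbours of ABCB1 were called higher and 7 of those of ABCC3 lower, and 0 of those of ABCC4 were called. Of all genes, 17.1% were called higher there and 16% lower.

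The genes whose pattern over the 12 arrays was closest to that of a member were found among 10223 genes, by the root mean square difference of centred log2 levels. For ABCB1, with an SD of 0.85 over the arrays, these were FAM53A (0.173), ESYT2 (0.174), PGM2L1 (0.178), ZBTB7C (0.198) and ADAMTS5 (0.223). Of these ESYT2 lies on chromosome 7, at 158730997 to 158829509, far from ABCB1 at 87503017 to 87713295. FAM53A averaged 6.34 in DoxR-v, 7.51 in DoxR, 5.45 in WT-v and 5.30 in WT cells, and so had the order of ABCB1. The closest to ABCC4 were TMEM64 (0.0947), the deacetylase gene SIRT1 (0.133) and FBXL8 (0.138). SIRT1 averaged 8.59 in DoxR-v, 9.25 in DoxR, 7.78 in WT-v and 8.06 in WT cells. Closest to ABCC3 were the mechanically gated channel gene PIEZO1 (0.254), RND2 (0.301) and CLPSL2 (0.347), with PIEZO1 at 6.96 in DoxR-v, 4.70 in DoxR, 4.84 in WT-v and 6.82 in WT cells. The lowest levels of detected probes were 5.13 to 5.45 on DoxR and 5.16 to 5.27 on WT-v arrays, so both low PIEZO1 means lay at background. ZBTB7C, ADAMTS5, FBXL8, CLPSL2 and TRAF3IP2 also had group means below such levels, and distances that rest on them are not exact. ABCC9 had TRAF3IP2 (0.353), COLEC11 (0.384) and TMEM44 (0.414), ABCC5 had FAM222A (0.227), SCARB2 (0.231) and RXRB (0.24), and ABCB6 had SYBU (0.0974), RHBDD2 (0.111) and SRD5A1 (0.116). ABCA2 had MIGA2 (0.174), SBNO2 (0.183) and CCDC97 (0.184), and ABCC10 had POLDIP3 (0.0945), FIZ1 (0.103) and UVRAG (0.105).

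The counts in the lists that follow are read against the share of all genes called. That share was 17.1% higher and 16% lower in DoxR vs WT, 12.6% and 11.8% in DoxR-v vs WT, 14% and 12.3% in WT-v vs WT, and 14.3% and 13.9% in DoxR-v vs DoxR. Among 38 other genes of the ABC family, 35 had a probe and 15 were tested. ABCG2, which encodes the breast cancer resistance protein, ABCC2 (MRP2) and ABCB4, the paralogue next to ABCB1, were each detected on 0 arrays with their 1 probe. In DoxR vs WT 1 of the 15 was higher and 3 were lower, and ABCF1, a translation factor without membrane spans, fell by 0.96 (adjusted p = 0.000245). ABCG4, a sterol transporter of the brain, fell by 1.01 in DoxR, where it was not detected (at least 1.25-fold, adjusted p = 0.000726). In DoxR-v vs WT 2 were higher and 2 lower. The mitochondrial transporter ABCB8 was higher (log2 0.90, adjusted p = 0.00358, at least 1.10-fold) and ABCF1 lower (-0.62). In WT-v vs WT 2 were higher and 3 lower, led by ABCA12, a lipid transporter of skin (log2 1.81, adjusted p = 0.00018), and ABCB9, a lysosomal peptide transporter (-0.86). In DoxR-v vs DoxR 4 were higher and 0 lower (limma, with 6 past an unadjusted p of 0.05), namely ABCB9 (log2 0.66) and, against DoxR arrays on which they were not detected, ABCG4 (at least 1.28-fold, adjusted p = 0.000665), ABCB8 (at least 1.20-fold) and ABCA12 (at least 1.22-fold). On the authors' values 0 of the family were higher in any of these 4 comparisons, and 1 was lower in each against WT, and without background correction 0 were higher in DoxR-v vs DoxR. Median scaling called 4 higher and 0 lower in DoxR-v vs WT, and 5 higher and 1 lower in WT-v vs WT.

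Glutathione genes were followed since MRPs export glutathione conjugates. Of 18 measured genes 5 were higher and 2 lower in DoxR vs WT (median log2 0.09, against 0.01 over all genes). Those with the smallest adjusted p were the transferase gene GSTK1 (log2 1.44, adjusted p = 1.38e-06), the stress-response factor NFE2L2 (0.89), its inhibitor KEAP1 (0.94) and GSTT1 (-0.73). In DoxR-v vs WT 3 were higher and 3 lower, led by MGST2, a microsomal transferase and leukotriene synthase (-1.67), the glutathione synthetase gene GSS (1.06), GSTP1 (-1.12) and GSTK1 (0.77). In WT-v vs WT 1 was lower, MGST2 (log2 -2.42, adjusted p = 2.63e-07), and 0 were higher (limma, with 10 past an unadjusted p of 0.05), whereas median scaling called 4 higher. Against DoxR, DoxR-v cells had 7 lower and 1, GSS (1.30), higher (median log2 -0.44, against 0.00 over all genes). GSTP1 (-1.01), MGST2 (-1.03) and GSTK1 (-0.67) were among those that fell, and median scaling called 2 genes lower. Median scaling also called 7 higher and 0 lower in DoxR vs WT, and 6 higher in DoxR-v vs WT.

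Of 22 measured factors known to act on the ABCB1 promoter or its chromatin, 4 were higher and 0 lower in DoxR vs WT (limma, with 12 past an unadjusted p of 0.05). They were FOS, a subunit of AP-1 (at least 2.60-fold, log2 2.13, adjusted p = 3.26e-05), SP3, which binds GC boxes (0.91), the WNT effector CTNNB1 (0.73) and the NF-kB subunit RELA (0.94). In DoxR-v vs WT 6 were higher and 4 lower, led by FOXO3 (log2 -1.52, adjusted p = 2.74e-05), TCF7L2, a partner of beta-catenin (1.95), EGR1 (0.87) and NFKB1 (-0.74). In WT-v vs WT 6 were higher and 1 lower, among them the acetyltransferase genes EP300 (1.32, adjusted p = 6.74e-05) and KAT2B (-1.82), EGR1 (0.88) and NFYA (0.85), a subunit of the factor that binds the CCAAT letters shown above. In DoxR-v vs DoxR 1 was higher, TCF7L2 (1.84), and 5 were lower, among them FOXO3 (-1.36), NFYA (-0.75, adjusted p = 0.00146) and FOS (-1.24). The interaction was called higher for 2 and lower for 9 of the 22, led by NFYA (-1.60, adjusted p = 6.81e-05), KAT2B (1.85), FOXO3 (-1.33) and HDAC2 (-0.99), against 20.2% of all genes higher and 21.9% lower. The number of these factors called higher was 7 in DoxR vs WT, 9 in DoxR-v vs WT and 10 in WT-v vs WT under median scaling, and 1, 2 and 2 on the authors' values. Median scaling left 1 lower in DoxR-v vs WT and 3 in DoxR-v vs DoxR, and on the authors' values the last count was 2. MYCN and MYC, known to act on ABCC genes in neuroblastoma, and their partner MAX gave 0 calls in DoxR vs WT and in WT-v vs WT (limma, with 0 past an unadjusted p of 0.05 in either). MYC was lower in DoxR-v than in WT (log2 -0.64, adjusted p = 0.059) and than in DoxR (-0.75, adjusted p = 0.027).

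Of 21 carriers for organic ions and nucleosides, listed for uptake but with the extruders SLC47A1 and SLC47A2 among them, 8 were tested. In DoxR vs WT 2 were higher and 3 lower, led by the nucleoside carrier SLC29A2 (log2 1.42, adjusted p = 1.81e-06), SLC22A17, a lipocalin receptor (-1.51), the extruder SLC47A1 (0.83) and the carnitine carrier SLC22A5 (-0.86). In DoxR-v vs WT 3 were higher and 0 lower (limma, with 3 past an unadjusted p of 0.05), namely SLCO4A1 (1.04, adjusted p = 0.00018), SLC29A2 (0.80) and SLC22A17 (0.66). In WT-v vs WT 2 were higher and 1 lower, with SLCO4A1 at 0.61 and SLC22A17 at 0.69. Against DoxR, DoxR-v cells had 3 higher and 2 lower, and SLC22A17 had the smallest adjusted p (log2 2.16, adjusted p = 5.81e-07). On the authors' values 1 carrier was higher and 1 lower in DoxR vs WT and 0 were higher in DoxR-v vs WT, where median scaling called 5. On those values 0 were called in WT-v vs WT, and 2 were higher and 0 lower in DoxR-v vs DoxR. SLC22A16, a carrier known to take up doxorubicin, was detected on 0 arrays.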

How the data were processed

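Illumina HT-12 v4 arrays of 12 SK-N-SH samples, 3 in each of 4 groups taken from the labels, were analysed. The authors deposited non-normalized probe signals as linear intensity values with a detection p-value for each probe. A second deposited table holds normalized intensity values, and the submitters' processing notes name lumi (2.13.3) and R (3.0.1). Its sorted values differ by at most 0.996 between arrays, so that the arrays share nearly 1 distribution. The sources used here do not give the transformation before that, so it served as an alternative. Of 47323 probes, 30113 had 1 symbol, 8 several and 17202 none, and 30074 of those with 1 symbol were matched by Entrez identifier to RefSeq.

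Signals were corrected with neqc (limma 3.58.1, R 4.3.3) from the detection p-values (offset 16), quantile normalized and taken to log2. Probes with a detection p below 0.01 on at least 1 array were kept (21609). One mean per group was fitted over 12 arrays with lmFit and eBayes, and p-values were adjusted with the Benjamini-Hochberg method over all tested probes. Calls needed an adjusted p under 0.1 and more than a 1.5-fold difference. For probes undetected on every array of the lower group, "at least" folds took for each of those arrays the lowest level among its detected probes or the probe's own level, whichever was higher. The fit was tested on simulated data. The number of arrays limits the precision.

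The members and gene lists were chosen with earlier results of these data known. All member probes were named, and from each other list up to 4 called genes per comparison, those with the smallest adjusted p. A gene with several probes was represented in lists by its brightest tested probe. The 5 genes closest in pattern to ABCB1 and the 3 closest to other called members were also named. Alternatives changed the background correction, offset, scaling, filter, averaging of probes, variance trend, arrays in the fit, replicate block and source of values, or left out 1 array. Promoter windows came from RefSeq (GRCh38.p14).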

Additional observations from a re-analysis of the deposited data

Results flagged for a closer look

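For the probes below, the DoxR-v minus DoxR difference was not the same as the WT-v minus WT difference by the interaction test of the limma fit. The values are log2 differences between these differences, and 38.3% of all probes passed the same thresholds. ABCC3 stood at 4.25. ABCC9 stood at 2.99 with its SUR2B probe, which is not an exact size because the probe was below detection on all 3 DoxR arrays. ABCB1 stood at -1.39 with ILMN_1812070 and -1.70 with ILMN_2094875, and ABCA2 at -1.48. Smaller values were found for ABCC4 with ILMN_1788457 (-0.79), ABCC5 with ILMN_1651964 (-0.61) and ABCC9 with its SUR2A probe (0.75), which was detected on 2 of the 12 arrays. On the authors' values ABCC3 had an interaction of 1.99 and ABCC9 of 1.13, and that of ABCA2 (-0.56) was not called.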

How the results depend on the processing

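Of 917 values of single probes under other processing, 865 kept their side of the thresholds, 44 were no longer called and 7 became called. The remaining 1, called in the main fit, turned its direction. The last was ABCC5 with ILMN_1706531 in DoxR vs WT-v, at 0.022 once the probes of the gene were averaged, against -0.64. Values called neither in the main fit nor under the alternative were counted among the 865 even where their sign changed. An example is ABCB6 in WT-v vs WT, at -0.22 in the main fit and up to 0.13 under other settings. Both ABCB1 probes kept their calls in DoxR vs WT (2.02 to 2.29 and 2.25 to 2.75) and in DoxR-v vs DoxR (-1.19 to -0.85 and -1.34 to -1.16) under each of these settings. The count of called member probes in WT-v vs WT was 3 when the background was left in, 2 on the authors' values and 3 genes with probes averaged, against 5. On the authors' values the interaction had 5 calls, against 8, and DoxR-v vs WT-v had 5, against 10. The cause was not tested.

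With 1 array left out, between 9 and 10 member probes were called in DoxR vs WT, 6 and 9 in DoxR-v vs WT, 4 and 6 in WT-v vs WT, 8 and 8 in DoxR-v vs DoxR, 8 and 10 in DoxR-v vs WT-v, and 6 and 8 in DoxR vs WT-v. The interaction had 6 to 9 calls. With the replicate number as a block the counts were 10 in DoxR vs WT, 7 in DoxR-v vs WT, 5 in WT-v vs WT, 8 in DoxR-v vs DoxR, 8 for the interaction, 8 in DoxR vs WT-v and 10 in DoxR-v vs WT-v, as without it. Deviations of same-numbered arrays correlated between -0.33 and 0.17, so that the numbers were not taken to pair arrays. With quantile normalization the median of all probes was -0.03 in DoxR vs WT-v and -0.01 in the interaction. Scaling each array to its median instead put the median of all probes at 0.13 in DoxR vs WT and 0.26 in DoxR-v vs WT. It was then 0.24 in WT-v vs WT, 0.10 in DoxR-v vs DoxR, -0.11 in DoxR vs WT-v and -0.14 in the interaction. Higher probes then made up 73.1%, 87.2%, 84.8%, 65.8%, 37.3% and 35.1% of calls, against 51.2%, 51%, 53.3%, 50.6%, 49% and 48%. A slide block was not run because the headers give no slide identifiers.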
